A study of Homo sapiens with 6 samples.

Results

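The genes described here are thioredoxin-interacting protein (*TXNIP*), its arrestin-domain paralogs *ARRDC1*, *ARRDC2*, *ARRDC3* and *ARRDC4*, the transcription factor partners *MLXIP* (MondoA) and *MLX*, and the thioredoxin system genes *TXN*, *TXN2* and *TXNRD1*. They were taken by gene symbol from a table of 15917 genes, which lists 9 of the 10. *ARRDC4* has no row there, and its level was not analysed here. The table comes from sequencing of total RNA from MDA-MB-231, an established triple-negative breast cancer cell line of human origin, grown in DMEM with fetal bovine serum. The series has 6 libraries in 3 groups of 2: shCTRL cells with a control hairpin, and shRBMS3-B3 and shRBMS3-C3 cells, each with a different short hairpin RNA against the RNA binding protein gene *RBMS3*. The study's methods describe luciferase-labeled cells transduced with lentivirus and selected with puromycin, so each group is a transduced population of the same line. The study used these cells to ask which transcripts depend on *RBMS3*.

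The level given below is the authors' mean normalized count of each gene, which is 1 value pooled over the libraries of their comparison. It mixes control and knockdown cells, and carries no standard deviation and no number of replicates. Which of the 6 libraries entered the mean is not settled by the sources used here. No level per library or per hairpin was analysed here, the depth of the libraries is unknown, and no knockdown effect is given for any gene. Differences between levels are therefore descriptions that could not be set against a spread between replicates. *RBMS3* itself, the targeted gene, had a pooled level of 272, and the hairpins cannot be checked from a pooled value. Known markers of the line were high, with *VIM*, *CD44* and *EGFR* at percentiles 98.5 to 99.9 of all listed genes. The hormone receptor genes *ESR1* and *PGR* had no row, and the epithelial cadherin gene *CDH1* lay at percentile 3.64. The luminal factor gene *GATA3* was listed at percentile 34.2.

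Thioredoxins are small proteins that reduce disulfide bonds in other proteins through a pair of active-site cysteines. Thioredoxin reductase restores them with electrons from NADPH. TXNIP binds reduced thioredoxin and blocks it, and also acts as an arrestin-like adaptor that promotes the removal of glucose transporters from the cell surface. Its transcription is induced by glucose through MondoA and MLX, which bind DNA as a dimer at carbohydrate response elements, and *ARRDC4* is known as another gene induced in this way. The ARRDC proteins are adaptors that carry NEDD4-type ubiquitin ligases to membrane proteins. In breast cancer, *TXNIP* and *ARRDC3* are both known as genes with tumor-suppressive roles.

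The study concerns an AUA element in 3′ untranslated regions (3′UTRs), which its model nominated as a candidate recognition site of RBMS3. The study also reports the element as enriched among binding sites of FLAG-tagged RBMS3 mapped by crosslinking and immunoprecipitation (CLIP-seq). For transcripts with lower levels or faster decay after *RBMS3* knockdown, it likewise reports enrichment of the element in 3′UTRs. Selected binding sites were tested by the study in reporters against scrambled controls. The element has 7 bases. Its core ATA is preceded by A or T, before which stands any base except C, and is followed by A or T and then by A.

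This element was searched on the transcript strand in the 3′UTR of the MANE Select transcript of each gene in GENCODE release 44 (hg38), with overlaps counted. The *TXNIP* gene (chr1:145992435-145996579, minus strand) has 8 exons and a 3′UTR of 1416 bases. It contained 3 matches, which are printed below 5′ to 3′ in transcript direction, as DNA letters, with the 7 bases of the match in capitals and 10 bases on either side.

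TXNIP match 581 bases after the stop codon, chr1:145993254-145993280: ttccctgtgaTTATAAAaaaggaagct

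TXNIP match 936 bases after the stop codon, chr1:145992899-145992925: atgtacagaaTTATATAattctaacgc

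TXNIP match 1388 bases after the stop codon, chr1:145992447-145992473: taaaaaatgaAAATAAAgtttttttaa

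The third of these differs from the others in what it contains. Its last 6 bases are AATAAA, the hexamer that directs cleavage and polyadenylation of most mRNAs, and it ends 22 bases before the annotated transcript end. The pattern of the AUA element admits this hexamer after any base other than C. The matches nearest to the 3′ end are shown for the 5 other members in which the last match ended within 50 bases of the transcript end, because they share this feature.

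ARRDC1, plus strand, chr9:137615328-137615354: caactcctgtAAATAAAacactttatt

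ARRDC4, plus strand, chr15:97973804-97973830: ttcgttttatTAATAAAattattacac

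MLX, plus strand, chr17:42573165-42573191: gcctgacaagAAATAAAaccacccgtt

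TXN, minus strand, chr9:110243821-110243847: gcaatgcaggTAATAAAgtagtatgtt

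TXN2, minus strand, chr22:36467054-36467080: caagtcagacAAATAAAgcaagggtct

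Each of these windows held the hexamer, 13 to 22 bases before the transcript end. Across all 12350 listed genes with a 3′UTR, 10480 (84.9%) had at least 1 match to the element, and 36.0% of the 71531 matches contained AATAAA. The last match ended within 50 bases of the transcript end in 69.9% of the genes with a match, and contained AATAAA in 85.0% of those. A terminal match with AATAAA, as in the 6 members, was present in 50.4% of the listed genes with a 3′UTR. A match by itself is a description of the letters and does not show that RBMS3 binds there. The study reports AATAAA as the most significant motif among its CLIP-seq sites. Its reporter insert for *TXNIP*, chosen by the size of the binding peak, contains the match 1388 bases after the stop codon. The scrambled control listed for this insert also contains the letters of that match, AAATAAA. Binding was not re-analysed here.

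All 10 genes had at least 1 match, beside 84.9% of the listed genes with a 3′UTR. The 10 3′UTRs held 35 matches, of which 15 contained AATAAA. Among the 9 listed genes the numbers were 26 and 12. When matches with AATAAA were left out, 7 of the 10 genes still had a match, beside 62.4% of the listed genes with a 3′UTR. The genes left without a match were *ARRDC1*, *ARRDC2* and *TXN2*. *TXNIP* then had 2 matches. Its 3′UTR was ordinary in this respect among the listed genes with a 3′UTR. At 59.0% A+U it lay at percentile 53.7, and its length lay at percentile 50.8. Its 2.12 matches per kilobase of 3′UTR lay at percentile 44.8, below the median of 2.43.

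**Figure D1:**
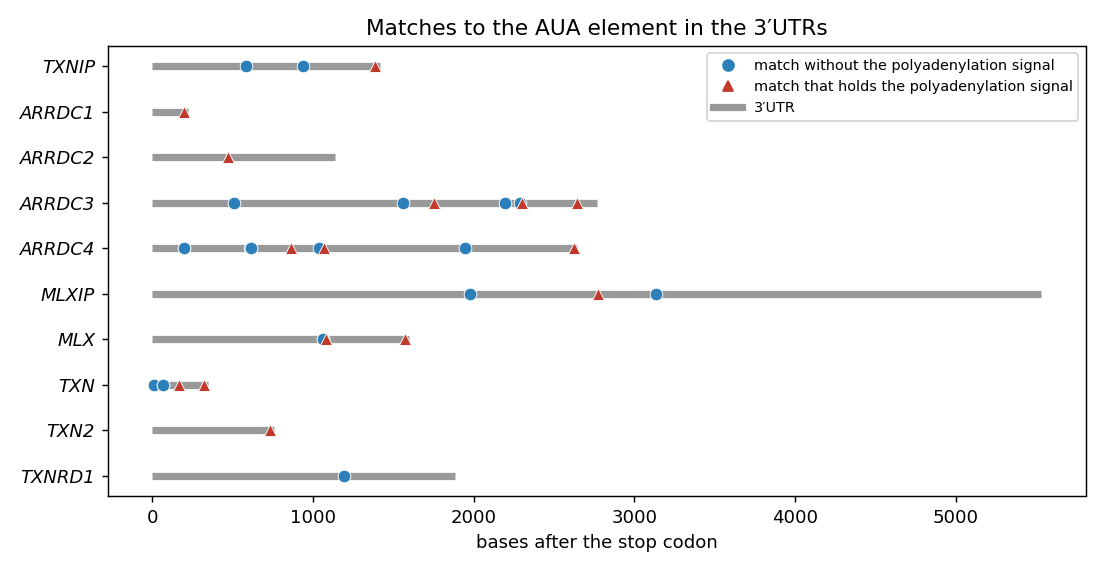
Matches to the AUA element along the 3′UTR of each of the 10 genes, drawn to scale in bases after the stop codon. Circles are matches without AATAAA and triangles are matches that contain it, and symbols of matches a few bases apart overlap. *ARRDC4* has 9 matches and *ARRDC3* has 7, while *ARRDC1*, *ARRDC2*, *TXN2* and *TXNRD1* have 1 each.

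The arrestin-domain paralogs were far from uniform in this element. *ARRDC4* had 9 matches in a 3′UTR of 2646 bases and *ARRDC3* had 7 in 2769 bases. Of the listed genes with a 3′UTR, 29.1% had 7 or more. *ARRDC1* and *ARRDC2* had 1 match each, in 3′UTRs of 222 and 1136 bases. Per kilobase of 3′UTR the order was different, with 4.505 matches for *ARRDC1*, 3.40 for *ARRDC4*, 2.53 for *ARRDC3* and 0.88 for *ARRDC2*. The paralogs with more matches had longer 3′UTRs and a higher A+U content, but *ARRDC1*, with the lowest A+U content, had the highest density. The A+U content was 66.0% for *ARRDC3* and 63.0% for *ARRDC4*, against 35.6% for *ARRDC1* and 45.7% for *ARRDC2*. The part of length or A+U content in the number of matches was not tested. In A+U content, *ARRDC1* lay at percentile 1.96 of the listed genes with a 3′UTR.

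Among the thioredoxin system genes, *TXN* stood out for density. Its 3′UTR of 347 bases was 72.3% A+U, at percentile 97.7 of listed genes with a 3′UTR, and carried 5 matches. This gave 14.4 matches per kilobase, at percentile 97.9. The matches 66 and 68 bases after the stop codon overlap and count separately here, and 2 of the others contain AATAAA. *TXN2*, the gene of mitochondrial thioredoxin, had only the terminal match printed above in 758 bases. *TXNRD1* had a single match in 1886 bases and was the only member with no AATAAA in its 3′UTR. That match is shown because it lies far from the transcript end, 1196 bases after the stop codon.

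TXNRD1, plus strand, chr12:104349607-104349633: acttgcattaTTATAAAgaggtattaa

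*MLXIP*, with the longest 3′UTR of the group at 5532 bases and 44.4% A+U, had 3 matches, or 0.542 per kilobase. *MLX* had 4 matches in 1600 bases.

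The level of *TXNIP* was a mean normalized count of 887. This placed it at percentile 71.5 of the 15917 listed genes, with 4529 genes higher, and above the median of all listed genes, which was 364. Of its paralogs, *ARRDC2* had a pooled level of 518 (percentile 58.5), *ARRDC1* of 369 (percentile 50.3) and *ARRDC3* of 229 (percentile 39.7). *ARRDC3* was the only one of the 9 listed genes below the median of the table. The lowest level in the table was 26.7.

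The genes of the cytosolic thioredoxin system lay high in the table. *TXNRD1*, the cytosolic thioredoxin reductase, had a level of 4878 (percentile 96.0), with 634 genes higher. *TXN*, cytosolic thioredoxin, was at 2641 (percentile 91.0). *TXN2* was at 713 (percentile 66.6). Of the transcription factor genes, *MLX* was at 2050 (percentile 87.7) and *MLXIP* was at 1925 (percentile 86.8).

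**Figure D2:**
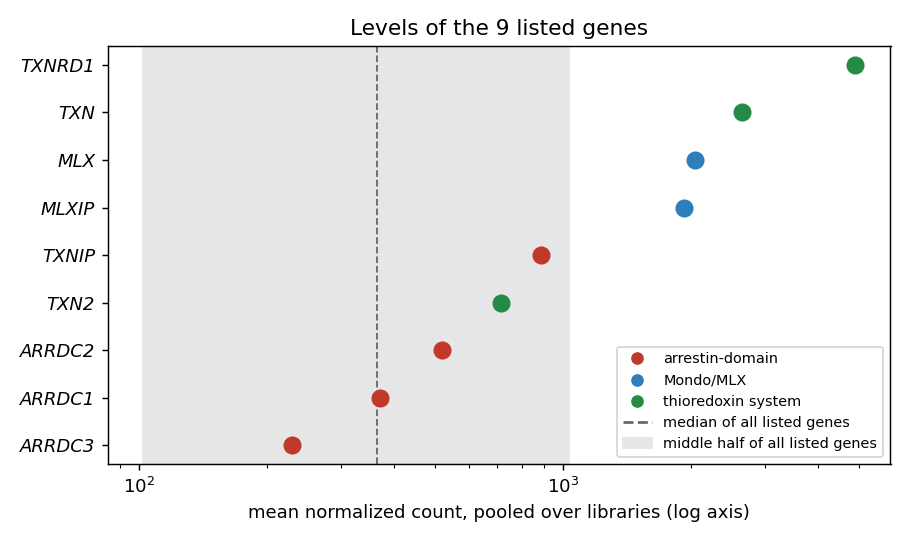
Pooled mean normalized count of the 9 listed genes on a log axis, colored by role, with 1 point per gene and no error because the value is a single pooled mean. The grey band runs from the lower to the upper quartile of all listed genes, 102 to 1034, and the dashed line is their median of 364. The points run from 229 for *ARRDC3*, the only one left of the median, to 4878 for *TXNRD1*, and lengths are not taken into account.

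The percentiles above rank levels that are not divided by length. Since long transcripts collect more reads, genes of the group were compared with each other after each level was divided by the length of the MANE Select transcript. On this scale, in mean normalized counts per kilobase, the order was *TXN* at 3583, *TXNRD1* at 1264, *MLX* at 869, *TXN2* at 534, *TXNIP* at 305, *ARRDC1* at 237, *MLXIP* at 230, *ARRDC2* at 207 and *ARRDC3* at 54.1. The median of all listed genes with a GENCODE model was 133. The first and last of these genes were 66.2-fold apart. Steps between neighbours ranged from 1.03-fold, between *ARRDC1* and *MLXIP*, to 3.82-fold, between *ARRDC2* and *ARRDC3*. No spread is known for any step, so none of these orders can be set against replicate error. The choice of length also changed the order in places. With the coding length, *MLX* at 2790 per kilobase stood above *TXNRD1* at 2502. *MLXIP* stood above *ARRDC1* with the longest transcript and with the coding length, and above *TXNIP*, at 556 against 430, with the mean length over protein-coding transcripts. *ARRDC2* stood above *ARRDC1* with the longest transcript and with the coding length. *TXN* was first and *ARRDC3* last with all 4 lengths.

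The transcripts of the group differ widely in length, from 737 bases for *TXN* to 8390 bases for *MLXIP*. Per kilobase of the MANE Select transcript, *MLX* was 3.79-fold above *MLXIP*, its dimer partner, and 1.825-fold with the mean length over protein-coding transcripts. *TXN* was 2.84-fold above *TXNRD1*, the gene of the enzyme that reduces it, and 1.46-fold with that mean length. It was also 6.71-fold above its mitochondrial counterpart *TXN2* and 11.7-fold above *TXNIP*, whose protein binds thioredoxin, on the same scale. These are ratios of transcript levels and say nothing of the proteins. *TXNIP* was 1.29-fold above *ARRDC1*, 1.48-fold above *ARRDC2* and 5.65-fold above *ARRDC3* per kilobase. With other lengths, its ratio to *ARRDC1* ran from 1.14 with the mean length to 2.66 with the coding length. Its ratio to *ARRDC2* reached 2.21 with the longest transcript. Its ratio to *ARRDC3* ran from 4.095 with the coding length to 7.94 with the mean length.

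Further genes were taken from 4 lists of known pathway members. All 17 genes of the list of thioredoxin system and peroxiredoxin genes were in the table, with a median of 942 per kilobase and 10 of them above *TXNIP*. The highest was *PRDX1*, a peroxiredoxin that is reduced by thioredoxin, at 5064 per kilobase, above *TXN*. The lowest was *TXNRD3*, a reductase best known from testis, at 37.5 per kilobase. *TXNRD1* was 33.7-fold above *TXNRD3* and 7.74-fold above the mitochondrial reductase gene *TXNRD2*, ratios that reached 63.6 and 14.9 with the mean length. *RRM1* and *RRM2*, the subunits of ribonucleotide reductase, which thioredoxin can reduce, stood at 1466 and 1268 per kilobase. *MAP3K5*, which encodes the kinase ASK1 that thioredoxin holds inactive, was at 65.2 per kilobase.

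**Figure D3:**
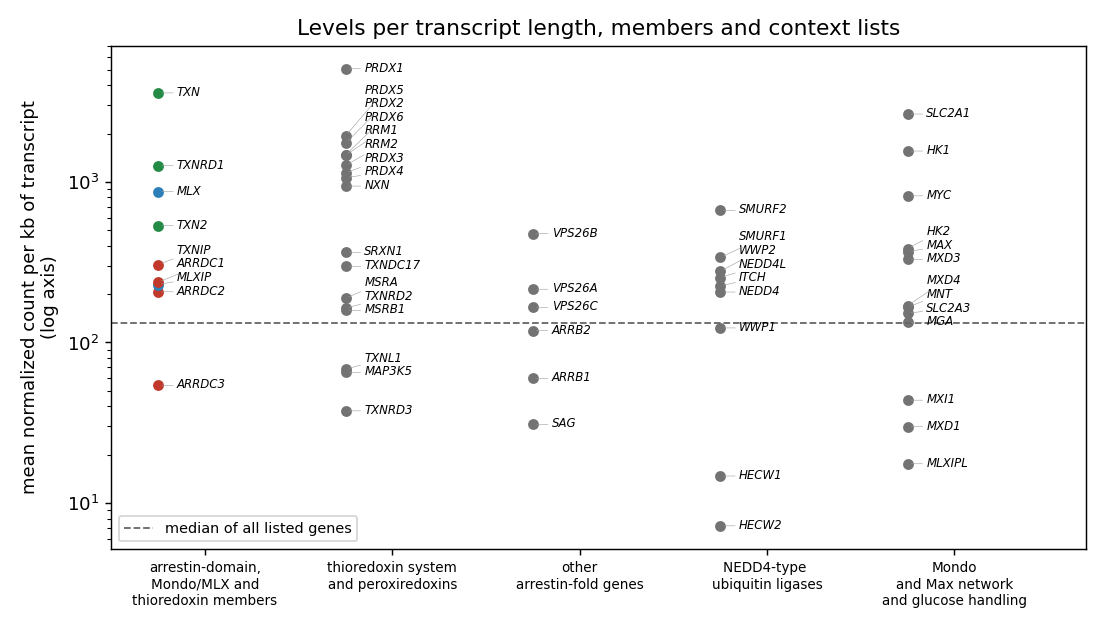
Pooled mean normalized count per kilobase of transcript, on a log axis, for the 9 listed genes (colored) and for the listed genes of 4 context lists (grey), 1 point per gene. The dashed line is the median of all listed genes, 133 per kilobase. *TXN* at 3583 and *PRDX1* at 5064 lead their columns, and *ARRDC3* at 54.1 is the only colored point below the line.

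The list of NEDD4-type ubiquitin ligases had all 9 genes in the table, with a median of 225 per kilobase. *SMURF2* was highest at 665 and *HECW2* lowest at 7.21, and 2 of the 9 exceeded *TXNIP*. *ITCH*, a ligase known to ubiquitinate TXNIP, was at 225. Of 8 other genes of the arrestin fold, 6 were listed, and *ARRDC5* and *ARR3* were not. Among them the retromer subunit *VPS26B* was highest at 476 per kilobase and *SAG*, the arrestin of the retina, lowest at 30.9, and *VPS26B* was the only one above *TXNIP*. The β-arrestin genes *ARRB1* and *ARRB2* had 59.8 and 118 per kilobase.

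The recruitment of NEDD4-type ligases is known to depend on the PPxY motif, in which x stands for any residue, and on WW domains of the ligase. Proteins were translated from the MANE Select coding sequences. Each of the 5 arrestin-domain proteins held 2 PPxY motifs, and none of the other 5 proteins held any. In TXNIP, which has 391 residues, the motifs began at residues 331 and 375. The spacing was similar in ARRDC2 (339 and 385), ARRDC3 (346 and 391) and ARRDC4 (350 and 395), while in ARRDC1 the motifs lay closer together, at residues 402 and 415 of 433. Over aligned residues, TXNIP was 47.0% identical to ARRDC4, 43.6% to ARRDC3, 39.8% to ARRDC2 and 25.8% to ARRDC1. The closest pair was ARRDC2 with ARRDC3, at 53.9%. The paralog most like TXNIP in sequence, ARRDC4, is the member without a row in the table. The listed paralog most like it, ARRDC3, had the lowest level.

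The thioredoxins share the CxxC motif of their active site. It began at residue 32 of the 105 residues of TXN and at residue 90 of the 166 residues of TXN2, whose start carries the mitochondrial targeting sequence. The proteins were 36.5% identical over 104 aligned residues. The letters also occurred at residue 404 of ARRDC2 and residue 183 of ARRDC3, so the motif alone does not mark a thioredoxin. TXNRD1 held 1 CxxC motif, at residue 76 of the 649 residues of this transcript, and whether it belongs to an active site was not examined. Its coding sequence held 1 in-frame UGA codon, which is read as selenocysteine in this enzyme.

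MondoA and MLX are known to act on E-boxes, whose core is CACGTG. This core, which reads the same on both strands, was searched in RefSeq promoter windows (GRCh38.p14) reaching from 250 bases before to 50 bases after an annotated start. Windows were found for 9 of the 10 genes (13 windows), with none for *TXN2*. The core occurred in *ARRDC4* and in *MLX*, which are 2 of the 9 genes, and in at least 1 window of 8.78% of the 27305 genes in the RefSeq table. Both sites are shown, with the core in capitals, since *ARRDC4* is a known target of the factor that *MLX* encodes. A core by itself does not show that MondoA or MLX binds there, and whole carbohydrate response elements were not searched for.

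ARRDC4, plus strand, chr15:97960481-97960510, core starting at position -210 from the start site: aaacggcctgtgCACGTGcacgccggagcc

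MLX, plus strand, chr17:42567038-42567067, core starting at position -50: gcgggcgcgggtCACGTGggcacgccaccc

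Neither of the 2 *TXNIP* windows held the exact core. With up to 1 mismatch to it, a *TXNIP* window held up to 4 sites, and 68.2% of the genes in that table had at least 1 such site in a window. No match says only that these letters are not in these windows.

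Several annotations bear on how the levels can be read. *ARRDC1* overlaps *ARRDC1-AS1* and 1 further annotated gene, *ARRDC2* overlaps 1 gene known only by its identifier, *ARRDC3* overlaps *ARRDC3-AS1*, *MLX* overlaps *PSMC3IP*, and *TXNRD1* overlaps *EID3* and 2 further genes. The library kit preserves strand, but the strand setting of the counting is not given in the sources used here, so reads of such partners may be uncertain. GENCODE names 8 pseudogenes of *TXN* and *MLX*, of which only *TXNP6* is listed, at a level of 29.7, close to the lowest in the table. *TXNIP* overlaps no other annotated gene. It has 4 annotated transcripts, against 19 for *TXNRD1* and 1 for *ARRDC4*, and the level of a gene does not show which of them was measured.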

How the data were processed

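Total RNA libraries of MDA-MB-231 cells were made with a stranded kit for low inputs. The submitters' processing notes name Salmon, DESeq2 and hg38, without versions or settings, and the annotation is not given in the sources used here. The authors deposited 1 table, from which only the pooled signal, a mean normalized count per gene, was used. Another 5 columns hold the authors' own comparison of knockdown with control cells (log2 fold change, standard error, statistic, p-value and adjusted p-value), and these were not used. The design provided for a test on counts per library, and none was run because the table has 1 pooled value per gene.

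Ensembl identifiers linked the table to GENCODE release 44, which holds 15829 of the 15917 listed genes. The representative transcript was MANE Select, or else the transcript whose coding sequence is longest. A percentile is the percentage of listed genes with a lower value, among those for which the value exists. A 3′UTR needed at least 7 bases. Proteins were translated from these coding sequences, because no RefSeq protein table was used here, and aligned globally in Biopython 1.88 (BLOSUM62, gap opening 11, extension 1). The motif search and the conversion of coordinates were tested on simulated data. Python 3.11.15, pandas 2.3.3 and matplotlib 3.10.9 were used.

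The members, the context lists and the motifs were chosen with earlier results of these data known. The text names all members, *RBMS3*, and from each context list the highest and lowest gene. Other list genes, the markers of the line and overlapping genes were named for their known role or position after their values were seen. Alternatives were other transcript lengths, other backgrounds for percentiles, other forms of each motif, and leaving out matches with AATAAA.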

Additional observations from a re-analysis of the deposited data

How the results depend on the processing

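The percentile of the *TXNIP* level, 71.5 among all listed genes, was 65.3 among protein-coding genes and 43.1 among genes above the median, as the construction of these smaller backgrounds implies. Per kilobase it was 70.4, and it was 73.5 with the longest transcript, 70.1 with the coding length and 66.9 with the mean over protein-coding transcripts. A percentile was taken as moved when it left the 95% Wilson interval of the main value, which covers counting of genes only. By this measure all 39 alternatives for the other 8 listed genes moved, 26 of them downward. Of the listed genes, 4 were above *TXNIP* per kilobase, and 5 with the mean over protein-coding transcripts. The number of listed members above the median level was 8, and 6 among protein-coding genes. The number of genes with an AUA match was 10, and it was 9 with the longest 3′UTR, where *ARRDC1* lost its match. It was 7 with ATATA alone and 7 without matches that hold AATAAA, an alternative added after seeing the data. Of the listed genes with a 3′UTR, 84.9% had a match, 62.6% held ATATA and 62.4% had a match without AATAAA. No share over all genes is given for the longest 3′UTR. The E-box core CACGTG occurred in promoter windows of 2 members, CACGTG with up to 1 mismatch in 7, and CANNTG in 5, beside 8.78%, 68.2% and 73.1% of all genes with a window. Of 42 alternatives for 14 ratios between genes per kilobase, 14 differed by over 1.5 times from the main value and 0 changed direction. These 14 ratios do not include the pairs named above whose order changed with the length, such as *MLX* and *TXNRD1* or *MLXIP* and *TXNIP*. They therefore do not show that the order of the genes is stable.

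Another normalization, another filter on low counts, each replicate left out and each hairpin alone were not run, since they need values per library. No paired analysis was possible because the table holds 1 pooled value per gene and carries no replicate. The unknown depth limits every level given here.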

Other observations

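In the list of the Mondo and Max network and of glucose handling, all 13 genes were in the table, with a median of 169 per kilobase. *SLC2A1*, which encodes the glucose transporter GLUT1 whose surface level TXNIP is known to lower, was highest at 2647 per kilobase and at percentile 98.2 by level. The related transporter gene *SLC2A3* was at 152 per kilobase, 17.4-fold lower, and 32.0-fold lower with the mean length over protein-coding transcripts. The hexokinase genes *HK1* and *HK2*, whose product glucose 6-phosphate is known to activate MondoA, stood at 1557 and 384 per kilobase. *MLXIPL*, which encodes ChREBP, the MondoA paralog best known from liver, was the lowest of the list at 17.6 per kilobase, 13.1-fold below *MLXIP*, and 31.2-fold below it with the coding length. In this line the Mondo factor with the higher transcript level was thus MondoA. *MYC* was at 819 per kilobase, and *MAX*, its dimer partner, at 366. As for the other genes, these are pooled means with no known spread.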
